A study of Mus musculus with 16 samples.

Results

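The 9 genes described here encode the enzymes that build long-chain fatty acids from citrate and then desaturate and elongate them: Acly, Acaca, Fasn, Scd1, Scd2, Elovl5, Elovl6, Fads1 and Fads2. They were taken by gene symbol from a table of 21924 protein-coding genes, in which all 9 were found, and all 9 were among the 14841 genes tested. RNA was sequenced from mouse germline stem cells, a culture of spermatogonial stem cells from testis that was kept on fibroblast feeder cells from mouse embryos with the growth factors GDNF and FGF2. There were 16 libraries in 8 groups of 2. Wild type DBA/2 cells were held at 20% or 1% oxygen. Cells of a 129 x C57BL/6 mixed background, called the Hif1a line here, were labelled Hif1a wild-type or Hif1a KO, each at 20% and at 1% oxygen. Cells of C57BL/6 background were labelled Top1mt wild type or Top1mt KO, both at 1% oxygen. Deletion in the Hif1a KO cells was made in culture with AxCANCre, given on the day of the hypoxia treatment, and the labels do not say if wild type cells had a virus without Cre. The sources used here also do not give the age of the animals, the number of animals or clones behind each line or how the Top1mt deletion was made.

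As background, ATP citrate lyase (Acly) splits cytosolic citrate into acetyl-CoA, acetyl-CoA carboxylase (Acaca) turns this into malonyl-CoA, and fatty acid synthase (Fasn) assembles both into palmitate. Elovl6 lengthens palmitate to stearate, and the stearoyl-CoA desaturases Scd1 and Scd2 put a first double bond into saturated chains to give oleate and palmitoleate. Fads2 and Fads1 put further double bonds into the essential polyunsaturated fatty acids, with Elovl5 lengthening the chain between these steps. The desaturases use molecular oxygen as a substrate, and many of these genes are known targets of the SREBP transcription factors.

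Promoter sequences of 6 of the 9 genes (Acly, Acaca, Fasn, Elovl5, Elovl6 and Fads2) were matched in RefSeq tables of build GRCm38.p6. The 3 shown belong to genes that were called lower in several of the same comparisons, and each holds a match to at least 1 of the motifs searched for. Each is the 250 bases before the annotated start, on the strand of the gene, 5′ to 3′. Capitals mark every match, on either strand, to the Sp1 box GGGCGG, the NF-Y box CCAAT, the hypoxia response core ACGTG or the E-box CACGTG. Adjoining or overlapping matches form 1 run of capitals.
Acly promoter, chr11:100528001-100528250, minus strand: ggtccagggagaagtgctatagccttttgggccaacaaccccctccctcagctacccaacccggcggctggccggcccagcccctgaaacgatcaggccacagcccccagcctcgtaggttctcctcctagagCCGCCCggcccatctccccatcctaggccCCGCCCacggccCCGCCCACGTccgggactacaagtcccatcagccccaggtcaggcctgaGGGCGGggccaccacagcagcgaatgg
Fasn promoter, chr11:120824548-120824797, minus strand: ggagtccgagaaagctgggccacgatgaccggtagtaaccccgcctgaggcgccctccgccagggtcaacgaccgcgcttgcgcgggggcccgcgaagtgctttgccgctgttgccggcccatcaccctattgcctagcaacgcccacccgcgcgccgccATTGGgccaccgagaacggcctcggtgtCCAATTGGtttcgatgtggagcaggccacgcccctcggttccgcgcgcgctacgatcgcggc
Elovl5 promoter, chr9:77917115-77917364, plus strand: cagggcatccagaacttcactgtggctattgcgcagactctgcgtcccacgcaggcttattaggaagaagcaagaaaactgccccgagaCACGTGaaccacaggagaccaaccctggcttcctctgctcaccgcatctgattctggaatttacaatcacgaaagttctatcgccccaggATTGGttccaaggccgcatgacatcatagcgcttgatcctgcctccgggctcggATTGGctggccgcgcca

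The Acly window held 4 Sp1 boxes, beginning at positions -117, -88, -76 and -27 from the start, and 1 hypoxia response core at -71 that shares a base with the Sp1 box before it. The Fasn window held 3 NF-Y boxes, at -90, -62 and -59, of which the last 2 overlap on opposite strands. Elovl5 held 2 NF-Y boxes, at -71 and -17, and 1 E-box at -161, which by its letters is also 2 hypoxia response cores on opposite strands. Fads2 held 1 Sp1 box, at -186, and the windows of Acaca and Elovl6 held no match to any motif searched. The window of Acaca lay inside the span that GENCODE gives for the gene, at chr11:84195188-84195437. No window of the 6 held the sterol response core TCACNCCAC. Among 32851 promoter windows of this length, 32.7% held the Sp1 box, 33.8% the NF-Y box, 16.6% the hypoxia response core, 6.02% the E-box and 1.05% the sterol response core. These matches describe letters in the windows and were not tested for binding.

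In GENCODE M21 on mm10, 3 of the genes lie on chromosome 11: Acaca (chr11:84129672-84401651, plus strand), Acly (chr11:100476353-100528000, minus strand) and Fasn (chr11:120805846-120824547, minus strand). The 4 desaturases lie on chromosome 19. Fads2 (chr19:10062765-10101746, minus strand) and Fads1 (chr19:10182888-10196877, plus strand) form 1 neighbourhood, and Scd2 (chr19:44293674-44306864, plus strand) and Scd1 (chr19:44394455-44407879, minus strand) form another. Elovl5 is at chr9:77917364-77984519 and Elovl6 at chr3:129532355-129638495, both on the plus strand. The values are sums over the exons of each gene as the authors counted them, and isoforms cannot be told apart. Scd1 and Scd2 are close paralogs: 4.56% of the 50-base windows of Scd1 exons and 3.75% of those of Scd2 occur in a family member, against 0.152% for Fads2 and none for Fads1, Elovl5, Elovl6 and Acaca. Reads from those stretches could have been assigned to either gene or dropped. Elovl6 shares 34 exon bases with the antisense gene Gm35986, and Scd2 shares 61 with the microRNA gene Mir5114.

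Depth ran from 11942104 to 25659895 reads per library, and no value of the 9 genes rested on fewer than 540 reads. The median gap between the 2 libraries of a group was 0.0487 on the log2 scale over the 9 genes, and the widest was 0.286, for Elovl6 in Hif1a-line wild type at 20%. Top1mt was lower in the Top1mt KO libraries, at 9.99 and 10.96 CPM against 32.8 and 34.8 in wild type (log2 fold change -1.60, adjusted p = 1.5e-12). Hif1a RNA went against its label. It was higher in the libraries labelled Hif1a KO than in wild type, at 139 and 142 against 116 and 118 CPM at 20% oxygen (0.26, adjusted p = 0.0034) and at 618 and 593 against 250.71 and 250.73 CPM at 1% (1.27, adjusted p = 1e-12). Reads outside a deleted part would check nothing, so the genotype of these libraries is named only as labelled. The series text gives 2 days in 1% oxygen, and library names of the Top1mt line carry "2d". Library names of the Hif1a line at 1% carry "6d" and "B", which its names at 20% lack. The sample numbers in the names are not continuous between the oxygen levels. Numbers 17 and 18 occur both in DBA/2 at 1% and in Hif1a-line wild type at 1%. What these marks stand for is not stated in the labels. In DBA/2 and the Hif1a line they cannot be told apart from oxygen. All libraries held germ cell markers, and they also held fibroblast feeder markers in amounts that moved with the groups. The 24 feeder markers summed to 8358 CPM in DBA/2 at 20% and 6856 at 1%, 12072 and 32953 in Hif1a-line wild type, 17692 and 62949 with the Hif1a KO label, and 21856 and 40681 in Top1mt wild type and KO (group means). The sums of 16 germ cell markers were 5803 and 4981, 4721 and 4203, 4088 and 1960, and 4034 and 2455 CPM in the same order. In such bulk RNA, fewer cells of a type and less RNA per cell cannot be told apart.

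**Figure D1:**
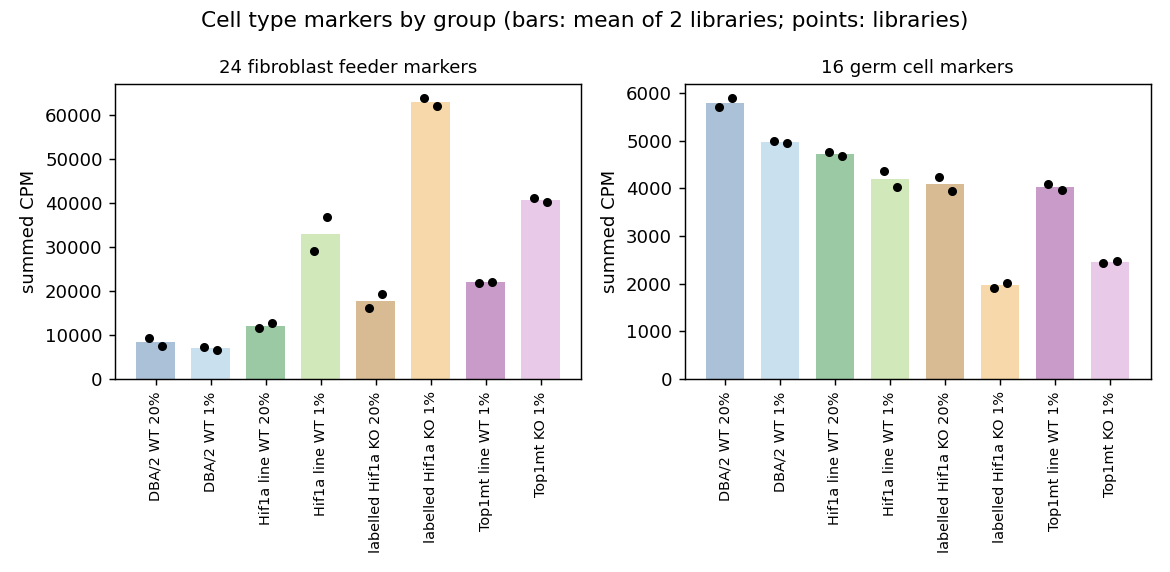
Summed CPM of 24 fibroblast feeder markers (left) and 16 germ cell markers (right) in the 8 groups. Bars are means of 2 libraries and points are the libraries. The feeder sum is highest and the germ cell sum lowest in the libraries labelled Hif1a KO at 1% oxygen, at 62949 and 1960 CPM.

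Markers of adipocytes, the cells best known for this pathway, were low. Of 10 markers, 5 passed the filter, Adipoq stayed at or below 0.838 CPM in every library, and Plin1, Lep and Cfd were at or near 0. The sum of the 10 was 21.9 to 51.6 CPM in the group means of 7 groups and 104 CPM in the libraries labelled Hif1a KO at 1%, where Fabp4 alone stood at 95.7 and 84.4 CPM. Summed leukocyte markers were 9.94 to 20.2 CPM, testis somatic markers 28.8 to 51.6 CPM and replication-dependent histone genes 29.0 to 218 CPM over the groups.

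All 9 genes were expressed in every library. Compared per kilobase of exon, Acly led in DBA/2 at 20% (191 CPM per kilobase), followed by Scd2 (84.3), Fasn (73.7) and Elovl5 (70.8), whereas Acaca was last (6.18) with Scd1 (12.8) and Fads1 (14.1) above it. Acly led in 5 of the 8 groups. Scd2 led in the other 3, with 118 CPM per kilobase in the libraries labelled Hif1a KO at 1%, 149 in Top1mt wild type and 157 in Top1mt KO. In each of these 3 groups the 2 libraries of Scd2 lay above both libraries of Acly on that scale. Acaca was last in every group, at 3.43 to 7.25 CPM per kilobase. Between groups the genes moved over a narrow range: the highest group mean was 1.87 times the lowest for Fasn and 3.07 times for Scd1, with the other 7 genes between them.

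**Figure D2:**
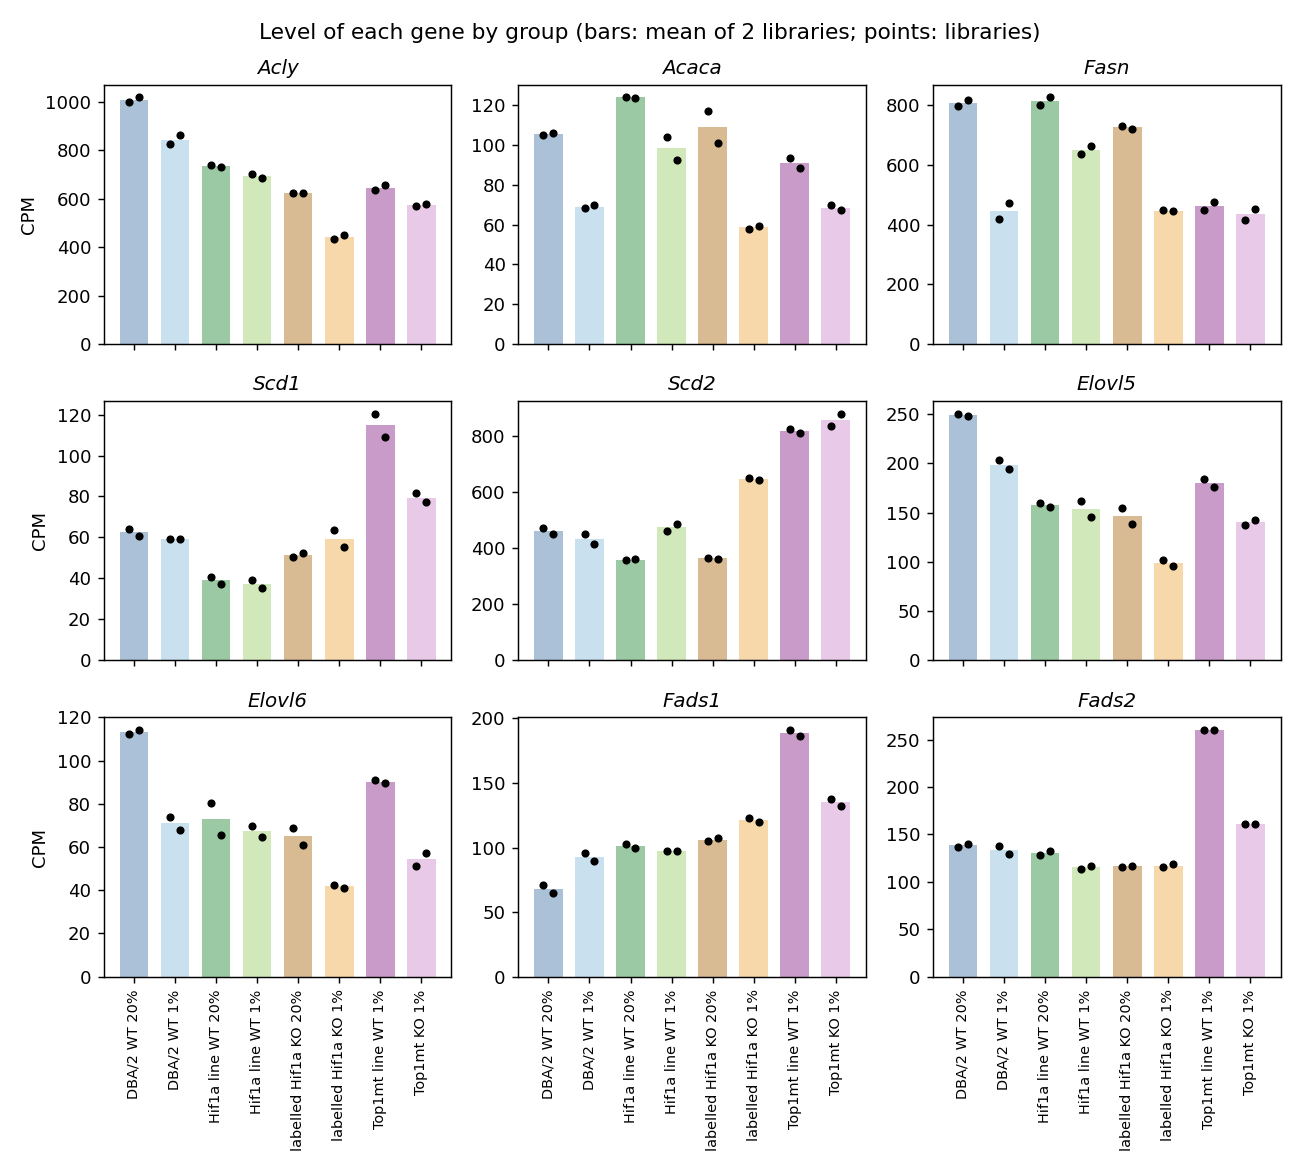
CPM of each of the 9 genes (vertical axes, from 0) in the 8 groups. Bars are means of 2 libraries and points are the libraries. Fasn falls from about 807 to 446 CPM between 20% and 1% oxygen in DBA/2 cells, while Scd2 rises from 363 to 646 CPM in the libraries labelled Hif1a KO.

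The first comparison asks how DBA/2 wild type cells responded to 1% oxygen. The 3 synthesis genes and both elongases fell, Fads1 rose, and the other 3 desaturases did not pass the test. Differences are given as log2 fold changes of CPM + 1 with their standard error (SE), and every adjusted p is from limma with Benjamini-Hochberg adjustment over all genes tested. With 2 libraries a group and no statement that they came from separate cultures, these p-values measure only the spread between libraries within groups. That spread is pooled over all 8 groups and may be technical. It was unequal, with a chi-square per gene of 1.79 in Hif1a-line wild type at 20% and 7.6 at 1%. Fasn was at 797 and 818 CPM at 20% oxygen and at 419.9 and 472 CPM at 1%. Both libraries at 1% were well below both at 20%, a log2 fold change of -0.86 (SE 0.055, adjusted p = 1.6e-10). Acaca, which supplies malonyl-CoA, went from 105 and 106 to 68.2 and 69.9 CPM (-0.60, SE 0.065, adjusted p = 1.8e-07). Acly, the most abundant of the 9 here, fell less, from 997 and 1018 to 824 and 861 CPM (-0.26, SE 0.044, adjusted p = 5.4e-05). In all 3 genes the groups did not overlap. Here and below that describes the values, is not a test and adds nothing to the calls. In this comparison 8514 of the 14841 genes tested were called, and the share of all genes without overlap is not given.

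Of the elongases in DBA/2, Elovl6 was at 112 and 114 CPM at 20% and at 73.7 and 68.1 CPM at 1% (-0.67, SE 0.080, adjusted p = 7.2e-07). Elovl5 was at 251 and 248 CPM at 20% and at 204 and 194 CPM at 1% (-0.33, SE 0.059, adjusted p = 1.0e-04). Of the desaturases, 1 passed the test. Fads1, which carries out the Δ5 step of polyunsaturated fatty acid synthesis, was at 70.9 and 65.0 CPM at 20% and at 95.4 and 89.9 CPM at 1%, both above both (0.44, SE 0.051, adjusted p = 5.4e-07). Its neighbour Fads2 stayed between 129 and 140.2 CPM in all 4 libraries with overlapping groups (-0.06, SE 0.046, adjusted p = 0.32). Scd1 was at 64.3 and 60.8 CPM at 20% and at 59.2 in both libraries at 1% (-0.08, SE 0.073, adjusted p = 0.38). Scd2 was at 471 and 449.9 CPM against 451 and 416 CPM, with overlap (-0.09, SE 0.049, adjusted p = 0.13). Scd2 passed the test as lower with other scalings, at -0.13 by TMM (adjusted p = 0.033), and without the first library at 1% (-0.15, adjusted p = 0.042). So 5 of the 9 genes were called lower, where 25.5% of all genes tested were, and 1 was called higher, where 31.8% were. The median of the 9 was -0.26, against 0.04 for all genes. Feeder and germ cell marker sums were 0.820 and 0.858 times their level at 20%. The markers moved in both directions. Of 24 feeder markers 15 were called lower and 2 higher, and of 16 germ cell markers 10 lower and 3 higher. Their part in these differences was not tested.

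Among other genes of the pathway in DBA/2, 8 of 13 regulators of lipid synthesis were called lower and 2 higher. The list counts stand beside 25.5% lower and 31.8% higher among all genes tested. Srebf1, a transcription factor that drives fatty acid synthesis genes, went from 175 and 176 to 133 and 142 CPM (-0.35, adjusted p = 0.00026). Srebf2, its counterpart for sterol genes, went from 591 and 610.3 to 454 and 489 CPM (-0.35, adjusted p = 5.3e-06). Insig1, which holds SREBP precursors in the endoplasmic reticulum, fell by 0.30 (adjusted p = 4.9e-05), the SREBP escort Scap fell by 0.31 and Mlxipl, the carbohydrate response factor ChREBP, fell by 0.40. Insig2 rose instead, from 24.1 and 21.6 to 34.4 and 31.4 CPM (0.51, adjusted p = 6.1e-06). Of 10 genes that supply precursors and NADPH, 3 were called higher and 4 lower. Acss1, the mitochondrial acetyl-CoA synthetase, showed the largest change of the genes named from that list, from 28.2 and 27.4 to 8.43 and 7.71 CPM (-1.67, adjusted p = 2.3e-11), and the cytosolic enzyme Acss2 fell by 0.33 (adjusted p = 2.2e-05). Malic enzyme Me1, a source of NADPH, rose by 0.72 (adjusted p = 6.9e-09) and the citrate carrier Slc25a1 did not pass the test (-0.12, adjusted p = 0.052).

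Of 22 sterol synthesis genes in DBA/2, 15 were called lower and 1 higher, with a median of -0.38. Among all genes tested 25.5% were lower and 31.8% higher, and the lists below are to be read beside these shares. Mvd fell by 0.93, Lss by 0.85 and Hmgcs1 by 0.48. Of 11 other elongases and enzymes of the elongation cycle, 6 were called higher and 1 lower. Elovl2 was at 5.03 and 3.80 CPM at 20% and at 9.53 and 9.61 CPM at 1% (0.98, adjusted p = 7.6e-06), and Elovl4, Hacd3 and Hacd4 rose by 0.67, 0.29 and 0.89. Among 9 further desaturases and electron donors, 3 were called lower, led by Scd4 (-0.78). Of 13 genes of glycerolipid acylation, 4 were called in each direction. Lpin1, a phosphatidate phosphatase, went from 252 and 242 to 109 and 113 CPM (-1.15, adjusted p = 3.6e-13). Acyl-CoA synthetases split as well, with 5 of 11 higher and 4 lower, and of 6 AMPK subunits 1 was higher and 2 were lower. The higher one was the catalytic subunit Prkaa2, from 2.79 and 2.90 to 18.4 and 19.95 CPM (2.39, adjusted p = 2.2e-12). Of 6 genes of mitochondrial fatty acid synthesis, Acsf3 was called higher (0.31) and Mecr lower (-0.60).

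In wild type cells of the Hif1a line, fewer of the 9 genes passed the test at 1% oxygen. Acaca, Fasn and Fads2 were called lower, where 34.6% of all genes tested were, and Scd2 was called higher, where 18.4% were. Fasn was at 799 and 826 CPM at 20% and at 637 and 662 CPM at 1% (-0.32, SE 0.055, adjusted p = 7.1e-05). Acaca was at 123.9 and 123.7 CPM at 20% and at 104 and 92.5 CPM at 1% (-0.33, SE 0.065, adjusted p = 0.00025). Scd2, the stearoyl-CoA desaturase with the higher level in these cells, went from 358 and 359.6 to 460.3 and 486 CPM (0.40, SE 0.049, adjusted p = 1.4e-06). For these 3 genes the libraries of the groups did not overlap, and each call held under every alternative tried. Fads2 was at 128 and 132 CPM at 20% and at 114 and 117 CPM at 1% (-0.17, adjusted p = 0.0035). That call was lost with TMM (-0.09, adjusted p = 0.13) and median-of-ratios scaling (-0.09, adjusted p = 0.13). It was also lost with edgeR (-0.08, adjusted p = 0.16) and DESeq2 (-0.09, adjusted p = 0.26) on recovered reads.

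The other 5 genes did not pass the test in Hif1a-line wild type. Acly was at 738 and 731 CPM at 20% and at 701 and 685 CPM at 1% (-0.08, SE 0.044, adjusted p = 0.12). Elovl5 was at 160.1 and 156 against 162 and 145 CPM (-0.04, adjusted p = 0.55), with overlap. Elovl6 was at 80.3 and 65.7 against 69.8 and 64.9 CPM, also with overlap (-0.11, SE 0.080, adjusted p = 0.26). Its value depended on the libraries at 20%: it was -0.25 and called lower without the second library of that group and 0.03 without the first. Scd1 was at 40.9 and 37.5 against 39.4 and 35.4 CPM (-0.07, adjusted p = 0.45), the lowest levels of this gene in the series. Fads1 was at 103 and 99.5 against 97.4 and 97.6 CPM (-0.05, adjusted p = 0.40). The small values of Acly, Scd1, Elovl5 and Fads1 had the opposite sign with other scalings, and median-of-ratios scaling moved the share of called genes that were higher from 34.7% to 49.7%. The median of the 9 genes was -0.08 and that of all genes -0.09. Feeder marker sums were 2.73 times and germ cell sums 0.890 times their level at 20%. Of 24 feeder markers 19 were called higher and 1 lower, and of 16 germ cell markers 2 higher and 8 lower. Among all genes tested 18.4% were higher and 34.6% lower. The part of the markers in these differences was not tested.

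Of the 13 lipid regulators in Hif1a-line wild type, 7 were called lower and 3 higher. This and the list counts below stand beside 34.6% lower and 18.4% higher among all genes tested. Srebf1 fell by 0.18 (adjusted p = 0.034), Scap by 0.33, Mlxipl by 0.63 and its partner Mlx by 0.63. Srebf2 did not pass the test (-0.05, adjusted p = 0.41). Insig1, lower in DBA/2, was higher here, from 212 and 204 to 269.6 and 242 CPM (0.30, adjusted p = 6.1e-05), and Insig2 rose by 0.58. Sterol synthesis genes were called higher in 10 of 22 cases and lower in 1, with a median of 0.24. Msmo1, Cyp51, Sc5d and Sqle, all of the oxygen-using later part of the pathway, rose by 0.74, 0.62, 0.51 and 0.47. Of the 10 precursor genes, 2 were called higher and 6 lower: Acss1 fell by 1.44, Mlycd by 0.55, Acss2 by 0.16 (adjusted p = 0.012) and Slc25a1 by 0.15 (adjusted p = 0.017), and Me1 rose by 0.38 and Idh1 by 0.44. Among 9 other desaturases and electron donors, 2 were higher and 1 lower, the lower one being Scd3 (-0.59). In the elongation list 3 of 11 were higher, among them Hacd4 (1.47) and Elovl1 (0.27), and Hsd17b12 was lower (-0.30). Acyl-CoA synthetases were lower in 6 and higher in 2 of 11, glycerolipid genes lower in 7 of 13, mitochondrial fatty acid synthesis genes lower in 2 of 6, and AMPK subunits lower in 2 and higher in 1 of 6.

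In the libraries labelled Hif1a KO, the synthesis genes and elongases fell at 1% oxygen while 3 of the 4 desaturases rose. Acly, Acaca, Fasn, Elovl5 and Elovl6 were called lower, where 54.7% of all genes tested were, and Scd1, Scd2 and Fads1 were called higher, where 25.2% were. Lower calls were thus about as frequent among the 9 genes as among all genes tested. The median of all genes was -0.29, and that of the 9 genes was -0.495. Acly went from 625 and 623 to 435 and 449.96 CPM (-0.50, SE 0.044, adjusted p = 2.8e-09). Acaca went from 117 and 101 to 57.7 and 59.5 CPM (-0.88, SE 0.065, adjusted p = 1.6e-10). Fasn went from 731 and 719.7 to 448 and 445 CPM (-0.70, SE 0.055, adjusted p = 5.3e-10). All libraries at 1% were below all at 20% in these 3 genes. Elovl5 went from 155 and 139 to 102 and 95.8 CPM (-0.57, SE 0.059, adjusted p = 3.2e-08), and Elovl6 from 68.7 and 61.1 to 42.4 and 41.1 CPM (-0.62, SE 0.080, adjusted p = 5.7e-07), again without overlap.

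Scd2 had the largest rise of the 9 genes in these libraries, from 366 and 361 to 651 and 641 CPM (0.83, SE 0.049, adjusted p = 6.5e-12). Fads1 rose from 105 and 107 to 123 and 119.99 CPM (0.20, SE 0.051, adjusted p = 0.0018). Scd1 was at 50.4 and 52.6 CPM at 20% and at 63.5 and 55.5 CPM at 1% (0.20, SE 0.073, adjusted p = 0.016). That call was lost without the first library at 1% (0.11, adjusted p = 0.26) and without the first at 20% (0.17, adjusted p = 0.093). Fads2 was at 116.1 and 116.9 CPM against 115 and 119 CPM (0.01, SE 0.046, adjusted p = 0.88). Median-of-ratios scaling moved the median of all genes up by 0.31 in this comparison, and the share of called genes that were higher from 31.6% to 53.0%. On that scale the 5 lower genes were still called, at -0.13 for Acly, -0.205 for Elovl5, -0.265 for Elovl6, -0.34 for Fasn and -0.52 for Acaca. The desaturases stood at 0.37 for Fads2, now called, 0.56 for Scd1 and Fads1 and 1.19 for Scd2. Feeder marker sums were 3.56 times and germ cell sums 0.480 times their level at 20%, with 23 of 24 feeder markers called higher and 16 of 16 germ cell markers lower. Their part in the differences of the 9 genes was not tested.

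Of the 13 lipid regulators in these libraries, 9 were called lower and 2 higher. Among all genes tested 54.7% were lower and 25.2% higher, and several of the list counts below are near these shares. Mlxipl went from 48.4 and 52.8 to 16.6 and 17.7 CPM (-1.51, adjusted p = 1.4e-13). Srebf2 fell by 0.58, Scap by 0.53, Srebf1 by 0.41 and Insig1 by 0.20 (adjusted p = 0.0014), and Insig2 rose from 22.9 and 23.8 to 60.3 and 56.1 CPM (1.28, adjusted p = 3.3e-12). Precursor genes were called higher in 4 and lower in 5 of 10: Acss1 fell by 1.93, Me2 by 0.98 and Acss2 by 0.70, and Idh1, Me1 and Slc25a1 rose by 0.97, 0.69 and 0.20. The other desaturases and their electron donors were mostly higher, with 6 of 9 called higher and 2 lower. Cytochrome b5 (Cyb5a), which passes electrons to the desaturases, rose by 0.75, Cyb5b by 0.41 and the reductase Cyb5r3 by 0.43, while Scd3 fell from 5.19 and 6.11 to 1.41 and 1.48 CPM (-1.44). In the elongation list 7 of 11 were lower and 2 higher, with Hsd17b12 at -0.66, Hacd3 at -0.44, Elovl1 at 0.72 and Hacd4 at 2.05. Glycerolipid genes were lower in 8 and higher in 2 of 13, including Lpin2 (-0.98), Dgat2 (-0.81), Lpcat1 (-0.79) and Lpin3 (-0.66). Acyl-CoA synthetases were lower in 6 and higher in 3 of 11, AMPK subunits lower in 3 and higher in 1 of 6, and mitochondrial fatty acid synthesis genes lower in 2 of 6. Sterol synthesis genes split, with 11 of 22 higher and 7 lower. Sc5d rose by 0.99, and Dhcr7 and Lss fell by 0.51 and 0.44.

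**Figure D3:**
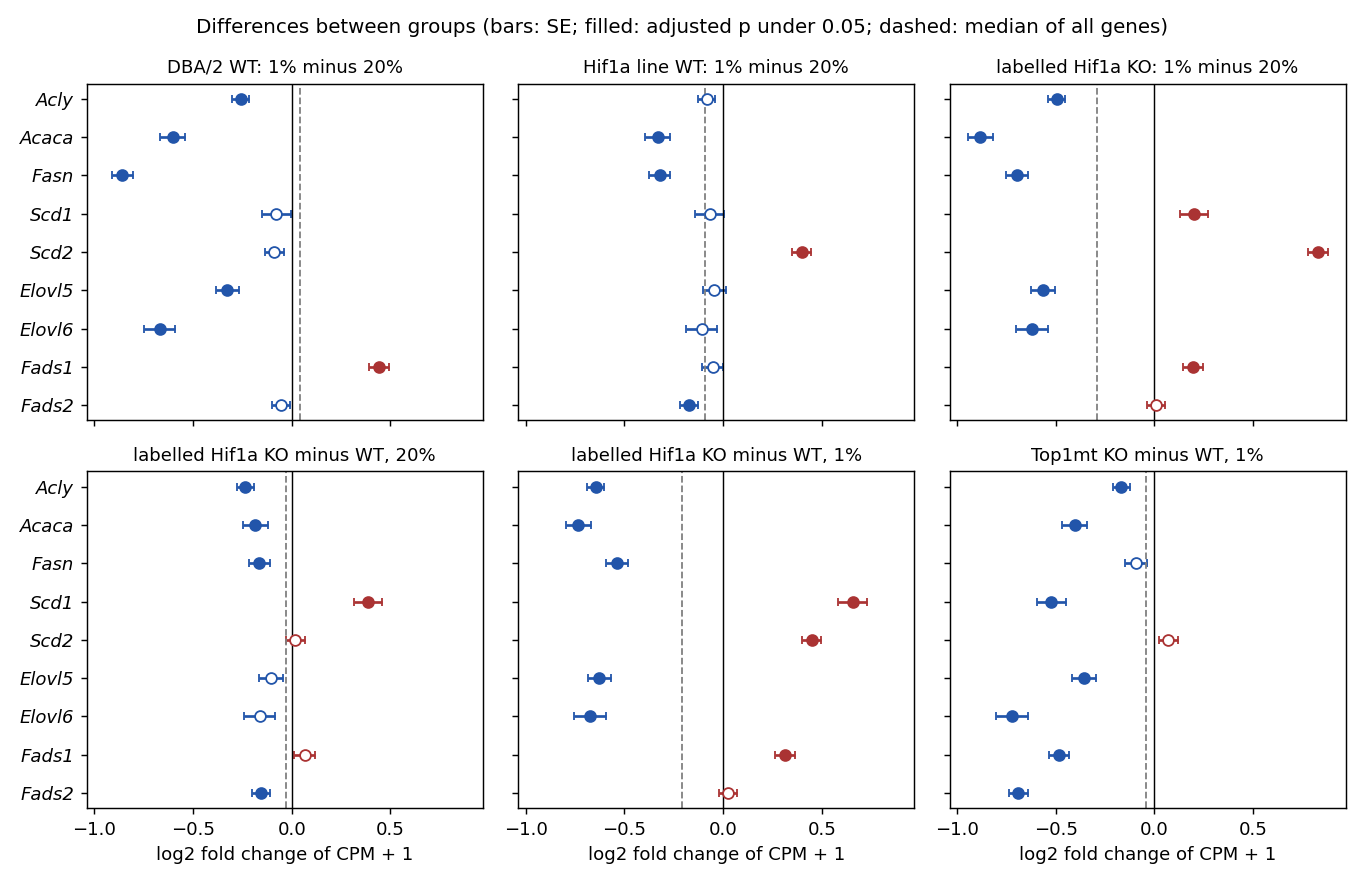
Log2 fold changes of CPM + 1 for the 9 genes in 6 comparisons, with SE bars. Filled points passed an adjusted p of 0.05 and the dashed line is the median of all genes tested. At 1% oxygen Fasn is left of 0 in all 3 comparisons with 20% while Scd2 is at -0.09, 0.40 and 0.83.

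Whether the oxygen response differed with the Hif1a label was tested as an interaction, the response of the labelled KO libraries minus that of wild type. All 9 genes passed: 5 were called lower (39.0% of all genes tested) and 4 higher (19%). Acly, Acaca, Fasn, Elovl5 and Elovl6 had the more negative response in the libraries labelled KO, with differences of -0.41, -0.55, -0.38, -0.52 and -0.51 and adjusted p from 1.7e-05 to 0.00072. Scd2 differed by 0.43 (SE 0.069, adjusted p = 3.2e-05), Fads1 by 0.25 (adjusted p = 0.0066), Fads2 by 0.18 (adjusted p = 0.022) and Scd1 by 0.27 (adjusted p = 0.031). In the same test 19 of 24 feeder markers were called higher and 16 of 16 germ cell markers lower, and their part was not tested. Only the calls of Acaca, Scd2, Elovl5 and Fads1 held under every alternative tried. With median-of-ratios scaling, which moved the median of all genes by 0.23 and the share of higher calls from 32.8% to 61.4%, 2 genes were called lower: Acaca at -0.28 and Elovl5 at -0.25. Fasn was then at -0.10 (adjusted p = 0.28), Acly at -0.14 (adjusted p = 0.060) and Elovl6 at -0.24 (adjusted p = 0.079), and the higher genes were at 0.455 to 0.705. The call of Scd1 was lost without the first library labelled KO at 1% (0.17, adjusted p = 0.19), the first labelled KO at 20% (0.24, adjusted p = 0.093), the first wild type library at 20% (0.21, adjusted p = 0.14) and the second wild type library at 1% (0.19, adjusted p = 0.12). That of Fads2 was lost without the second wild type library at 20% (adjusted p = 0.087), the first wild type library at 1% (adjusted p = 0.053), the first labelled KO library at 20% (adjusted p = 0.051) or the second at 1% (adjusted p = 0.078).

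The responses of the wild type lines were compared in the same way, Hif1a line minus DBA/2. Differences were positive and called for 6 of the 9 genes, against 15.1% of all genes tested, and negative for 1, against 30.9%. The fall of Fasn was smaller in the Hif1a line by 0.54 (adjusted p = 2e-05) and that of Acaca by 0.27 (adjusted p = 0.020). Elovl6 differed by 0.56 (adjusted p = 5e-04) and Elovl5 by 0.28. Both fell in DBA/2, and neither passed the oxygen test in Hif1a-line wild type. Acly differed by 0.17 (adjusted p = 0.027) and Scd2 by 0.49 (adjusted p = 1.4e-05). Fads1, which rose in DBA/2, stood at -0.50 (adjusted p = 2e-05). Scd1 (0.01, adjusted p = 0.95) and Fads2 (-0.12, adjusted p = 0.14) did not pass. All of these calls held with the other scalings, which moved the median of all genes by up to 0.12 and the share of called genes that were higher from 32.9% to 51.5% (median of ratios). The call of Acly was lost in a fit of these 4 groups alone (0.17, adjusted p = 0.052). Both the Acly and the Acaca call were lost without the second DBA/2 library at 20% (0.16 and 0.26), the first DBA/2 library at 1% (0.14 and 0.25), either Hif1a-line library at 20% (0.18 and 0.27 without the first, 0.17 and 0.27 without the second) or the first Hif1a-line library at 1% (0.16 and 0.19). Of 24 feeder markers 20 were called higher in this test, and their part was not tested. Strain differs between these lines, and library names at 1% carry a time mark in the Hif1a line and none in DBA/2. These differences cannot be told apart.

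At 20% oxygen, the libraries labelled Hif1a KO differed from wild type in 5 of the 9 genes, by less than 0.4 on the log2 scale. Acly, Acaca, Fasn and Fads2 were called lower, where 9.55% of all genes tested were, and Scd1 was called higher, where 12.9% were. Scd1 was at 50.4 and 52.6 CPM with the KO label and at 40.9 and 37.5 CPM in wild type, without overlap (0.39, SE 0.073, adjusted p = 0.00085). Acly was at 625 and 623 against 738 and 731 CPM (-0.23, SE 0.044, adjusted p = 0.00085). These 2 calls held under every alternative. Acaca (-0.18, adjusted p = 0.047), Fasn (-0.16, adjusted p = 0.040) and Fads2 (-0.16, adjusted p = 0.018) lay near the threshold. With edgeR on the recovered reads 2 genes were called lower, and Acaca and Fasn were not. Leaving out any 1 of the 4 libraries ended the calls of Fasn (-0.14 to -0.19) and Fads2 (-0.13 to -0.18). Acaca was at -0.08 without the second labelled KO library and at -0.29 without the first, and was also not called without the first (-0.18) or second (-0.185) wild type library. The other 4 genes did not pass, with values from -0.16 for Elovl6 to 0.06 for Fads1 and Scd2 at 0.02. The value of Elovl6 depended on the wild type libraries, at -0.31 without the second. Feeder marker sums were 1.47 times and germ cell sums 0.866 times those of wild type. Of 24 feeder markers 21 were called higher, and of 16 germ cell markers 12 were called lower. Their part was not tested.

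Of 13 regulators at 20% oxygen, Srebf2 (-0.24) and Insig1 (-0.23) were lower, Mbtps2 (0.33) was higher, and Srebf1 did not pass (-0.09, adjusted p = 0.41). This and the list counts below stand beside 9.55% lower and 12.9% higher among all genes tested. Of 10 precursor genes, Me1 (0.23) and G6pdx (0.21) were higher and Me2 (-0.17) was lower, and Acss2 (-0.13, adjusted p = 0.066) and Slc25a1 (-0.01, adjusted p = 0.93) did not pass. The front-end desaturase relative Fads3 was at 68.5 and 73.1 CPM against 42.8 and 43.2 CPM (0.71, adjusted p = 9.4e-05). With Degs1 (0.48), Cyb5r3 (0.43) and Cyb5a (0.30) it made up the 4 of 9 desaturase and electron donor genes called higher, against 2 lower. Sterol synthesis genes were lower in 7 and higher in 1 of 22, glycerolipid genes lower in 3 and higher in 2 of 13, the elongation list higher in 2 of 11 (Elovl1 and Hacd4, at 0.49 and 0.41), acyl-CoA synthetases higher in 1 of 11 (Acsl5, 0.45) and AMPK subunits 1 of 6 in each direction. Of the mitochondrial fatty acid synthesis genes, Acsf3 had the smallest adjusted p and did not pass (-0.14, adjusted p = 0.41).

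At 1% oxygen 8 of the 9 genes differed with the label, with the CPM given above. The comparisons within the Hif1a line draw on the same 8 libraries and are not independent of each other. Acaca was called lower (-0.73, adjusted p = 3.2e-09), as were Elovl6 (-0.67, adjusted p = 2e-07), Acly (-0.65, adjusted p = 9e-11), Elovl5 (-0.63, adjusted p = 8.4e-09) and Fasn (-0.54, adjusted p = 2.9e-08), where 49.1% of all genes tested were. Scd1 (0.66, adjusted p = 8.4e-08), Scd2 (0.45, adjusted p = 6.6e-08) and Fads1 (0.31, adjusted p = 1.5e-05) were called higher, where 28.3% were. Calls in each direction were thus about as frequent among the 9 genes as among all genes tested. All 8 calls held under every alternative. The libraries of the 2 labels did not overlap in any of these 8 genes. That adds nothing to the calls, since 11488 of the 14841 genes tested were called here. Fads2 did not pass (0.02, adjusted p = 0.63) as deposited, and was called higher with median-of-ratios scaling (0.305, adjusted p = 7.3e-06). That scaling moved the median of all genes, -0.21 as deposited, up by 0.23 and the share of higher calls from 36.6% to 54.2%. On it the lower genes stood at -0.26 for Fasn to -0.455 for Acaca, and Scd1 at 0.935 was the highest of the 9. The feeder sum was 1.91 times and the germ cell sum 0.466 times that of wild type, with 24 of 24 feeder markers higher and 16 of 16 germ cell markers lower, and their part was not tested.

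Fads3 was at 117 and 122 CPM against 38.3 and 50.03 CPM (1.42, adjusted p = 1.9e-10), Cyb5a rose by 1.06, Cyb5r3 by 0.98 and Degs1 by 0.88, with 5 of 9 called higher and 3 lower. Of 13 regulators 7 were lower and 4 higher, with Mlxipl at -1.02, Srebf2 at -0.77, Insig1 at -0.73, Srebf1 at -0.32 and Insig2 at 0.89. The list counts here stand beside 49.1% lower and 28.3% higher among all genes tested, and several are near these shares. All 10 precursor genes passed, 6 of them higher. Slc25a1 was at 126 and 122 CPM against 94.3 and 100.2 CPM (0.35, adjusted p = 3.2e-06), and Me1 (0.54) and Idh1 (0.48) were also higher, while Me2 (-0.96) and Acss2 (-0.67) were lower. Sterol synthesis genes were lower in 13 and higher in 6 of 22, with Dhcr7 at -1.08 and Lss at -0.72. In the elongation list 7 of 11 were lower and 3 higher, from Elovl4 at -1.03 to Hacd4 at 0.99. Glycerolipid genes were lower in 7 and higher in 3 of 13, AMPK subunits lower in 4 and higher in 1 of 6, acyl-CoA synthetases lower in 4 and higher in 2 of 11, and mitochondrial fatty acid synthesis genes lower in 2 of 6.

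The last comparison concerned Top1mt, the mitochondrial DNA topoisomerase, in C57BL/6 cells at 1% oxygen. Of the 9 genes, 7 were called lower, where 33.2% of all genes tested were. Scd2 was the one gene with a positive value and was not called by limma as deposited. Limma called it higher with TMM (0.12, adjusted p = 0.044) and with median-of-ratios scaling (0.13, adjusted p = 0.042). It was also called higher by edgeR on the recovered reads (0.13, adjusted p = 0.037). The genes called lower included 3 of the 4 desaturases. Fads2 was at 260.0 and 260.3 CPM in wild type and at 161 and 160.5 CPM in the KO (-0.69, SE 0.046, adjusted p = 2.8e-10). Fads1 was at 191 and 186 against 138 and 132 CPM (-0.48, SE 0.051, adjusted p = 1.6e-07). Scd1 was at 120.5 and 109 against 81.5 and 77.5 CPM (-0.52, SE 0.073, adjusted p = 4.5e-06). The wild type libraries of this line held the highest levels of Scd1, Fads1 and Fads2 in the series, above those of every other group.

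Both elongases were lower in Top1mt KO cells as well. Elovl6 was at 91.0 and 89.5 CPM in wild type and at 51.5 and 57.3 CPM in the KO (-0.72, SE 0.080, adjusted p = 2.5e-07). Elovl5 was at 184 and 176 against 137 and 143 CPM (-0.36, SE 0.059, adjusted p = 3.4e-05). Of the synthesis genes, Acaca was at 93.2 and 88.5 against 69.6 and 67.2 CPM (-0.40, SE 0.065, adjusted p = 2.3e-05). Acly was at 635 and 657 against 569.7 and 579.7 CPM, a smaller difference without overlap (-0.17, SE 0.044, adjusted p = 0.0028). These 7 calls held under every alternative. Fasn overlapped, at 450.3 and 475 against 415 and 453 CPM (-0.09, SE 0.055, adjusted p = 0.15). Without the second KO library it stood at -0.16 and just passed. Scd2 was at 824 and 808 CPM in wild type and at 835 and 879 CPM in the KO (0.07, SE 0.049, adjusted p = 0.23), the highest levels of this gene in the series. The median of the 9 genes was -0.40 and that of all genes -0.04. Feeder marker sums in the KO were 1.86 times and germ cell sums 0.609 times those of wild type, with 24 of 24 feeder markers higher and 16 of 16 germ cell markers lower, and their part was not tested.

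Of the 13 regulators, 4 were lower and 4 higher in Top1mt KO cells. Among all genes tested 33.2% were lower and 25.2% higher, and the list counts below are to be read beside these shares. Rxra, the partner of LXR receptors, went from 156 and 165 to 89.5 and 92.1 CPM (-0.81, adjusted p = 4.5e-11), Srebf2 fell by 0.51, Srebf1 by 0.39 and Insig1 by 0.23, and Insig2 rose by 0.66. Acss1 went from 17.5 and 17.3 to 4.33 and 3.91 CPM (-1.85, adjusted p = 8.3e-12) and Acss2 from 104 and 107 to 52.2 and 50.5 CPM (-1.02, adjusted p = 7.1e-12). Acacb, the mitochondrial isoform of acetyl-CoA carboxylase, fell by 0.57, and Slc25a1 and Me1 rose by 0.49 and 0.24, so that 5 of 10 precursor genes were lower and 3 higher. In the elongation list 6 of 11 were lower and 2 higher, among them Hsd17b12 from 173 and 171 to 90.9 and 96.7 CPM (-0.87, adjusted p = 3.4e-10), Elovl2 (-0.74), Hacd4 (0.98) and Elovl1 (0.48). Fads3 (0.65), Degs1 (0.60) and Cyb5r3 (0.58) were higher and Scd4 (-1.18) lower, with 5 of 9 higher and 2 lower. Sterol synthesis genes were lower in 9 and higher in 1 of 22, with Dhcr7 at -0.56 and Fdft1 at -0.43. Acyl-CoA synthetases were lower in 6 and higher in 1 of 11, led by Slc27a2 (-1.10), and glycerolipid genes were lower in 6 and higher in 2 of 13. AMPK subunits were called 2 of 6 in each direction, and of the mitochondrial fatty acid synthesis genes Mecr was higher (0.32).

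Ratios within a library do not depend on how libraries are scaled to each other, and they are given as a description with no test. The summed CPM of Scd1 and Scd2 over that of Fasn was 0.672 and 0.625 in DBA/2 at 20% and 1.215 and 1.01 at 1%. In Hif1a-line wild type it was 0.499 and 0.481 at 20% and 0.784 and 0.788 at 1%. With the Hif1a KO label it went from 0.569 and 0.575 to 1.59 and 1.56. In each of these 3 pairs of groups both libraries at 1% were above both at 20%. Top1mt wild type and KO, both at 1%, had 2.10 and 1.93 and 2.21 and 2.11. The balance of the 2 stearoyl-CoA desaturases was not fixed: Scd2 over Scd1 was 7.33 and 7.40 in DBA/2 at 20% and 7.62 and 7.02 at 1%, with overlap. It was 8.74 and 9.59 and then 11.7 and 13.7 in Hif1a-line wild type, and 7.25 and 6.86 and then 10.25 and 11.55 with the KO label. In Top1mt wild type it was 6.84 and 7.42, against 10.25 and 11.34 in the KO.

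The neighbours Fads1 and Fads2 also shifted against each other. Fads1 over Fads2 was 0.518 and 0.464 in DBA/2 at 20% and 0.693 and 0.697 at 1%. In Hif1a-line wild type the ratio was 0.805 and 0.753, then 0.856 and 0.838, and with the KO label 0.903 and 0.916, then 1.07 and 1.01, the highest of the 8 groups. It was 0.735 and 0.716 in Top1mt wild type and 0.854 and 0.822 in the KO. In all 4 pairs of groups (20% then 1%, or wild type then KO) the second group lay above the first in both libraries. Acly over Fasn was 1.25 and 1.24 in DBA/2 at 20% and 1.96 and 1.83 at 1%, the widest gap of the 4 pairs.

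**Figure D4:**
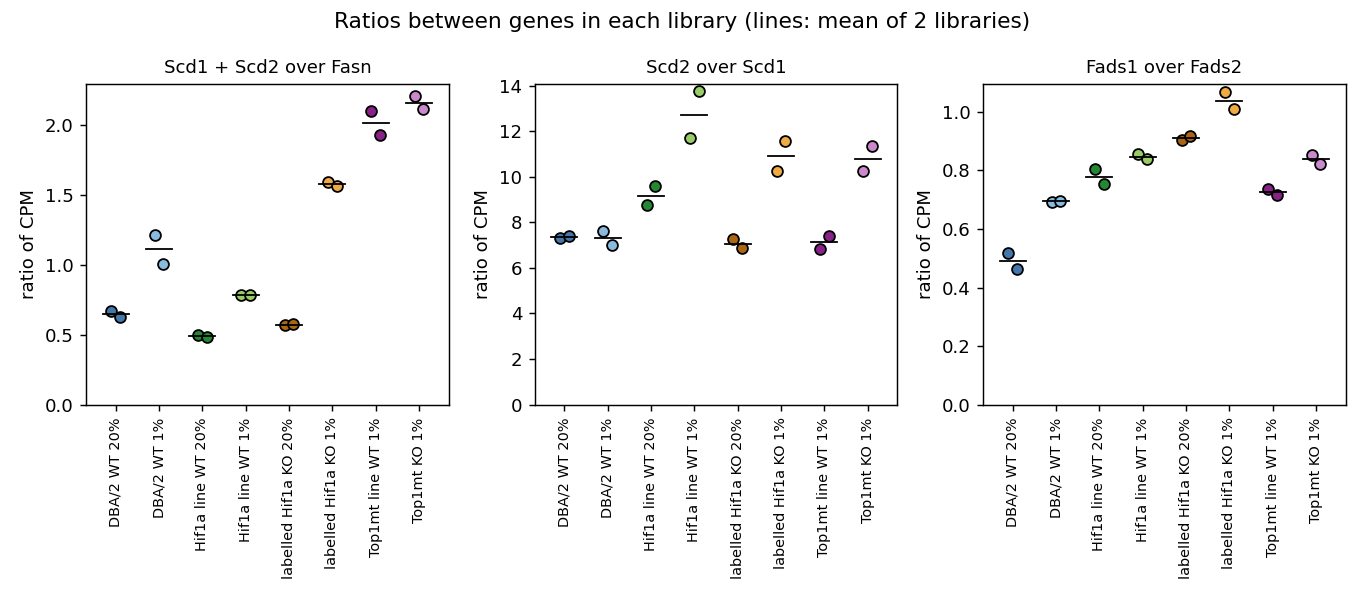
Ratios of CPM within each library: Scd1 plus Scd2 over Fasn (left), Scd2 over Scd1 (middle) and Fads1 over Fads2 (right), from 0, in the 8 groups. Points are libraries and lines their means. The left ratio is higher at 1% than at 20% oxygen in all 3 pairs of groups that have both, from a mean of 0.572 to 1.58 in the libraries labelled Hif1a KO.

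Over the 8 group means, the genes fell into patterns that are given as Pearson correlations of log2(CPM + 1), with no p, since the groups share lines and marker content. Acly went with Elovl5 (r = 0.954) and Elovl6 (0.865), and Elovl5 with Elovl6 (0.937). These 3 were all highest in DBA/2 at 20% and lowest in the libraries labelled Hif1a KO at 1%. Acaca went with Fasn (0.896), both highest in Hif1a-line wild type at 20%. Scd1 went with Fads2 (0.863) and Scd2 (0.785), and Fads1 with Scd2 (0.715) and Fads2 (0.699). For each of these desaturases, Top1mt wild type and Top1mt KO ranked 1 and 2 among the groups, in either order. Some pairs had the opposite sign, as Fasn with Scd2 (-0.754), Acly with Fads1 (-0.648) and Fasn with Fads1 (-0.627).

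The order of the groups was clear for some genes and not for others. For Acly each of the 8 groups lay above the next in both libraries, from DBA/2 at 20% through DBA/2 at 1%, Hif1a-line wild type at 20% and 1%, Top1mt wild type, the libraries labelled Hif1a KO at 20% and Top1mt KO to those labelled Hif1a KO at 1%. Fads1 was ordered in the same strict way from Top1mt wild type (189 CPM) down to DBA/2 at 20% (68.0 CPM). Fasn had 2 levels that could not be split: Hif1a-line wild type and DBA/2 at 20% overlapped at the top, and at the bottom the range of DBA/2 at 1% overlapped those of Top1mt wild type, Top1mt KO and the libraries labelled Hif1a KO at 1%. Elovl6 did not separate Hif1a-line wild type at 20% from DBA/2 at 1%, from Hif1a-line wild type at 1% or from the labelled KO at 20% by neighbouring steps. For Fads2, the libraries labelled Hif1a KO at either oxygen level and Hif1a-line wild type at 1% overlapped at the bottom, between 113.8 and 119 CPM.

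Among 11797 tested genes with a mean of at least 5 CPM, up to 3 whose group means were most like those of each gene are named, picked by their Pearson correlation over the 8 groups. For Acly they were Pot1b (0.99), Qtrt2 (0.99) and Bclaf1 (0.99), for Elovl5 Kcnab2, Qrich1 and Zdhhc13 (all 0.99), and for Elovl6 Tec (0.98), Tchp (0.98) and Zfp334 (0.97). Fasn was nearest to Supt6, Rabl2 and Tubgcp6 (all 0.99), and Acaca to Wdr90 (0.98), Med12 (0.98) and Cic (0.97). For the desaturases they were Zbtb7c (0.96), Mapkapk3 (0.96) and Got1 (0.95) for Scd1, Itga2b (0.97) and Tceanc2 (0.96) for Scd2, Ada (0.98), Slc27a3 (0.98) and Ethe1 (0.97) for Fads1, and Eml2 (0.98), Ndufs3 (0.98) and Rnaseh2c (0.97) for Fads2.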

How the data were processed

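RNA of 16 libraries was measured with TruSeq stranded mRNA kits, per the labels' protocols. What the authors deposited is a single table that gives CPM per protein-coding gene. Per the submitters' processing notes, the tools were cutadapt 1.16, STAR 2.6.0c, HTSeq 0.11.2 and DESeq2 1.22.2, with build mm10. Roles, annotation, filters and the strand setting of the counting are not given in the sources used here. Within a tolerance of 0.01, 100% of the deposited values were whole multiples of 1 read (0.0390 to 0.0837 CPM), so reads could be recovered. Replicates were not identical (chi-square per gene 1.79 to 7.60).

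The main test was limma 3.58.1 (R 4.3.3) on log2(CPM + 1) with a pseudocount of 1, 1 mean for each of 8 groups, a trend and no replicate block. Genes that reached 1 CPM in 2 or more libraries were tested, and calls needed an adjusted p of 0.05. Alternatives were pseudocounts, filters, TMM and median-of-ratios scaling, fits on the compared groups alone, a replicate block, leaving out each library, and edgeR 4.0.16 and DESeq2 1.42.0 on recovered reads. edgeR called 3165 to 11059 genes over the 8 comparisons. The code was tested on simulated data.

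The 9 genes and all lists were chosen with earlier results of these data known. From each list the text names up to 4 genes with the smallest adjusted p and a mean of at least 1 CPM, plus Srebf1, Srebf2, Insig1, Acss2, Slc25a1 and Me1. Likeness used genes with a mean of at least 5 CPM. Hsd17b8 was not matched. Promoters come from RefSeq, with Scd1, Scd2 and Fads1 not matched. Some genes that the naming rule picked are not reported here.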

Additional observations from a re-analysis of the deposited data

Results flagged for a closer look

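The test of the difference itself flagged 16 values in which the oxygen response of a gene differed between groups (limma, log2 scale). For the libraries labelled Hif1a KO minus wild type, the differences were -0.41 for Acly, -0.55 for Acaca, -0.38 for Fasn, -0.52 for Elovl5 and -0.51 for Elovl6. The desaturases had 0.27 for Scd1, 0.43 for Scd2, 0.25 for Fads1 and 0.18 for Fads2. For Hif1a-line wild type minus DBA/2, the differences were 0.17 for Acly, 0.27 for Acaca, 0.54 for Fasn, 0.49 for Scd2, 0.28 for Elovl5, 0.56 for Elovl6 and -0.50 for Fads1. Both sets share the wild type libraries of the Hif1a line, so they are not independent of each other.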

How the results depend on the processing

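Of 720 values of single genes under the settings other than leaving out a library, 662 kept direction and call, 24 lost the call, 14 gained it and 20 changed sign. With 1 library left out the counts were 318, 31, 4 and 7 of 360. No called value changed sign. In Hif1a-line wild type, TMM, median-of-ratios scaling, edgeR and DESeq2, in this order, gave Acly 0.0032, 0.00404, 0.00703 and 0.00484, Scd1 0.0165, 0.0173, 0.018 and 0.0169, Elovl5 0.0427, 0.0435, 0.0462 and 0.0446, and Fads1 0.0329, 0.0337, 0.038 and 0.0359. They gave 0.0105, 0.00511, 0.0105 and 0.00231 for Fads2 in Hif1a line minus DBA/2. For the label at 20% oxygen, 2 genes in place of 4 were called lower without a filter, with TMM, edgeR or DESeq2. With TMM, median-of-ratios scaling and edgeR, 1 gene was called higher in Top1mt KO, and with median-of-ratios scaling and DESeq2 2 were called lower in the Hif1a interaction. Other scalings shift every gene of a comparison by about the same amount.
With 1 library left out, single gene values that could change sign ranged from -0.0663 to 0.084 for Scd1 in Hif1a line minus DBA/2, from -0.143 to 0.00688 for Scd1, -0.12 to 0.0323 for Elovl5 and -0.252 to 0.0344 for Elovl6 in Hif1a-line wild type, and from -0.0152 to 0.0311 for Fads2 in the libraries labelled Hif1a KO. For the label at 20% oxygen, genes called lower ranged from 1 to 2 and all genes called from 1508 to 2957, against 3329 with every library. The count was 1508 and 1960 without the first and second wild type library and 1574 without the second labelled KO library. In the Hif1a interaction, genes called higher ranged from 2 to 4.
Replicate numbers are shared between groups, but nothing says that they mark a shared culture or day. Deviations of same-numbered libraries correlated at -0.112 to 0.25 over 11797 genes. A fit with the replicate number as a block changed no call of the 9 genes, and the count of called genes went from 3329 to 3804 for the label at 20% oxygen and from 8514 to 8760 in DBA/2. A limit of the data is that each group holds 2 libraries. A group left with 1 library is assumed to vary like the other groups. The 9 genes had at least 540 reads in every library. Feeder marker sums and the time marks in library names differ between groups, and their part was not tested.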
